A study of Mus musculus with 36 samples.

Results

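The 18 libraries of 1 cohort, cohort D, out of 36 libraries in the series, form a 2 by 2 design of the alleles Ccnd1 and Ikk2ca, and the question asked here is where the effect of both alleles together departs from the sum of their separate effects. Each library came from 2000 plasma cells sorted from the bone marrow of mice of the C57/BL6 strain by CD138 and TACI on their surface and, as the series' design text puts in brackets, by a reporter. The 4 groups were Ccnd1-Ikk2ca, with both alleles and 6 libraries, Ccnd1 with 4 libraries, Ikk2ca(D), with Ikk2ca alone and 4 libraries, and Control(D), with neither allele and 4 libraries. The other cohort, M, has the same layout with the allele MMSET in place of Ccnd1, and shares no library with cohort D. The labels used here do not say which of the 8 groups carry the reporter. They name neither the promoter or Cre line that drives the alleles nor the ages of the mice, and they leave it unsaid whether each library of a group is another animal, so a p-value speaks only of the spread among the libraries.

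Cyclin D1, the product of Ccnd1, pairs with CDK4 and CDK6 to phosphorylate the retinoblastoma protein and so allows entry into S phase, and it is switched on by a chromosomal translocation in a subgroup of human multiple myeloma. Ikk2ca encodes a constitutively active form of IKK2, the kinase that marks the NF-kB inhibitor for destruction and frees NF-kB to enter the nucleus. Plasma cells have left the cell cycle and have shut down much of the B cell programme, and NF-kB signals from the marrow help to keep them alive.

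A non-additive effect was the log2 fold change with Ikk2ca among cells that carry Ccnd1 (Ccnd1-Ikk2ca over Ccnd1) minus the log2 fold change with Ikk2ca among cells that do not (Ikk2ca(D) over Control(D)). It is 0 where the separate folds multiply, negative where the gene is lower with both alleles than the product of the folds predicts, and positive where it is higher. It was computed for each of 15323 genes, with edgeR's quasi-likelihood test and Benjamini-Hochberg adjustment over all of them. Levels are given in CPM, reads scaled to the size of each library but not to transcript length, so they compare libraries and not genes.

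The libraries of cohort D held 58.4 to 97.6 M reads, of which immunoglobulin genes took 55.8% to 73.0%, and between 12540 and 14013 genes had at least 10 reads. The targeted transcripts followed the labels. Ccnd1 itself was at 275 to 965 CPM (median 678) in the 6 Ccnd1-Ikk2ca libraries, at 252, 282, 284 and 374 CPM in the Ccnd1 libraries, at 0.708, 0.707, 3.49 and 0.540 CPM in the Ikk2ca(D) libraries and at 1.26, 0.654, 0.596 and 0.798 CPM in the Control(D) libraries. Every library with the allele lay far above every library without it. Its non-additive effect was 0.49 (SE 0.69, 95% interval -0.97 to 1.95). The log2 effect of Ccnd1-Ikk2ca over Ccnd1 was 1.20 (SE 0.48, adjusted p = 0.150, edgeR quasi-likelihood). That of Ikk2ca(D) over Control(D), 0.71 (SE 0.51), came from levels of 0.540 to 3.49 CPM. Ikbkb, the gene of IKK2, was at 41.4 to 58.7 CPM (median 52.7) in Ccnd1-Ikk2ca, at 29.2, 19.2, 31.9 and 19.5 CPM in Ccnd1, at 80.6, 52.8, 48.4 and 41.3 CPM in Ikk2ca(D) and at 24.5, 37.8, 25.6 and 19.1 CPM in Control(D), so that all libraries with the allele were above all without it. Its non-additive effect was -0.004 (95% interval -0.65 to 0.64). More than 10 CPM of Xist, which female cells express, was found in 3 of 6 Ccnd1-Ikk2ca, 2 of 4 Ccnd1, 4 of 4 Ikk2ca(D) and 1 of 4 Control(D) libraries, so the mix of sexes differed between groups.

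Of the 15323 genes, 4 passed an adjusted p under 0.05, or 0.0261%, and all 4 were lower with both alleles than the sum of the separate effects: Pltp, Prkcb, Gpr174 and Cd79a. At an unadjusted p under 0.05 there were 1051 genes, or 6.86%, of which 413 (2.7%) were higher and 638 (4.16%) lower. The median non-additive effect over all genes was -0.02. The same fit called 950 genes (6.2%) between Ccnd1-Ikk2ca and Ccnd1, 67 (0.437%) between Ikk2ca(D) and Control(D), 1 (0.00653%) between Ccnd1 and Control(D), which was Ccnd1 itself, and 1708 (11.1%) between Ccnd1-Ikk2ca and Control(D), of which 893 (5.83%) were higher and 815 (5.32%) lower. These comparisons share libraries, and the difference between 950 and 67 calls is not itself a test of non-additivity. With Xist status as a covariate 4 genes were called in place of the 67, and 947 in place of the 950. With replicate numbers 1 to 4 only, 544 genes were called in place of the 950 and 996 in place of the 1708, and with all 36 libraries in 1 fit 115 in place of the 67. Without Ccnd1 replicate 1, 2 or 3 the 950 became 410, 562 and 521, without Control(D) replicate 2 or 1 the 1708 became 984 and 1124, and the 67 ranged from 17 without Control(D) replicate 2 to 120 without Ccnd1 replicate 4, with 26, 31, 33 and 107 without Ikk2ca(D) replicate 2, Control(D) replicate 3, Control(D) replicate 1 and Ikk2ca(D) replicate 1. Between Ccnd1 and Control(D) there were 2 calls without Control(D) replicate 1 and 3 without replicate 4. The number of called genes rested on single libraries: it was 0 without Control(D) replicate 2 or without Ccnd1-Ikk2ca replicate 2, 1 or 2 without Control(D) replicate 1 or 3, Ccnd1 replicate 1, 2 or 3 or Ikk2ca(D) replicate 3 or 4, and 6 or 7 without Ccnd1 replicate 4 or Ccnd1-Ikk2ca replicate 1 or 3.

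Pltp encodes the phospholipid transfer protein, which moves phospholipids between lipoproteins. Prkcb encodes protein kinase C beta, a kinase that acts below the B cell receptor. Gpr174 encodes a receptor for lysophosphatidylserine found on lymphocytes, and Cd79a encodes Ig-alpha, 1 of the signalling chains of the B cell receptor. Since these are the 4 genes that moved past the threshold together, stretches of DNA upstream of their RefSeq starts (mouse build GRCm38.p6) are shown, 5′ to 3′ on the gene's own strand. They lie at chr2:164857712-164857958 on the minus strand for Pltp, and on the plus strand at chr7:122289044-122289073 for Prkcb, chrX:107284096-107284345 for Gpr174 and chr7:24897247-24897380 for Cd79a. The Prkcb stretch lies inside an exon of the GENCODE annotation, which starts the gene further upstream. The others lie outside annotated exons, but that of Gpr174 lies within the annotated span of its gene, which also starts further upstream. Capitals mark the only match found to 3 motifs searched on both strands.
Pltp: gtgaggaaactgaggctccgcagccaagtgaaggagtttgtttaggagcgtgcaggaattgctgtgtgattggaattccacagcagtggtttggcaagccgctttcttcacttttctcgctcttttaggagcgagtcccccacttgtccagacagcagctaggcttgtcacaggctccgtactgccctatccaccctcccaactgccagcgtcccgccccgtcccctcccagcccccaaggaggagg
Prkcb: gcctgggtttcATGCAAATgagggaggcgg
Gpr174: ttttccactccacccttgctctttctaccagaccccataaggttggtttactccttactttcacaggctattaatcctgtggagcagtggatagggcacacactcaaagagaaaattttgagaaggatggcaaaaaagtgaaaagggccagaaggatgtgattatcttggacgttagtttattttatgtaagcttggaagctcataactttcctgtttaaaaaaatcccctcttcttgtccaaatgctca
Cd79a: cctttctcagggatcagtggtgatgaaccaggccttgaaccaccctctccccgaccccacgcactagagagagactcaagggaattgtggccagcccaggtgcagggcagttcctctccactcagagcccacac
The search covered the 250 bases before each start. The octamer ATGCAAAT, the motif of OCT factors, was present upstream of Prkcb, with its first base 70 bases before the start, and 1.6% of the 32851 mouse promoters searched in the same way hold it. The EBF core CCCNNGGG was present in 11.8% of promoters, and the NF-kB motif, searched with 2 of its bases left free, in 1.41%. Neither had an exact match in any of the 4 windows. Variants of the motifs were not searched for, so sites that differ from these letters by a base may be present.

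Pltp (chr2:164839518-164857711, minus strand) had 1 read in Ccnd1-Ikk2ca replicate 2, or 0.0127 CPM, and 0 reads in the other 5 libraries of that group. It was at 4.23, 14.04, 5.74 and 0.544 CPM in Ccnd1, at 1.24, 1.05, 2.91 and 1.88 CPM in Ikk2ca(D) and at 8.04, 5.94, 5.30 and 1.26 CPM in Control(D). All 6 libraries with both alleles were below the other 12, and the groups with 1 allele overlapped Control(D). The log2 effect of Ccnd1 alone was 0.26 and that of Ikk2ca alone was -1.54, a sum of -1.28, against -10.32 for both. Neither single effect passed the test (adjusted p 1 for Ccnd1 and 0.393 for Ikk2ca, edgeR quasi-likelihood). The non-additive effect was -9.04 (SE 1.26, 95% interval -11.69 to -6.40, adjusted p = 0.0124). Since only 1 read was seen against 1380 in Ccnd1, this fitted value is no bound. From the summed reads the level with both alleles was 0.000378 of that in Ccnd1, with a counting interval of 9.56e-06 to 0.0021, and the departure was -9.79, with a counting interval of -15.09 to -7.31. These intervals are exact Poisson intervals at 95% for the Ccnd1-Ikk2ca reads, with the levels of the other groups held fixed. They cover counting error of those reads only, because amplified reads without molecular identifiers are not independent molecules.

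Prkcb (chr7:122288751-122634402, plus strand) showed the same pattern from 7 reads in all. Ccnd1-Ikk2ca libraries were at 0 CPM in 4 cases, at 0.0844 CPM in replicate 3 and at 0.0124 CPM in replicate 6. The level was 5.88, 1.86, 7.63 and 10.3 CPM in Ccnd1, 1.47, 1.31, 3.43 and 8.72 CPM in Ikk2ca(D) and 5.45, 6.60, 6.80 and 5.92 CPM in Control(D). The 6 libraries with both alleles lay below the other 12, which overlapped one another. Replicate 4 of Ikk2ca(D), at 8.72 CPM, lay above every Control(D) library, and the other Ikk2ca(D) libraries lay below all of them. On the log2 scale Ccnd1 alone gave 0.05 (SE 0.78) and Ikk2ca alone -0.73 (SE 0.78). Neither estimate reached a 2-fold change, but with these SEs a single effect of that size is not excluded. The combined effect was -8.46. The non-additive effect was -7.79 (SE 1.23, 95% interval -10.36 to -5.22, adjusted p = 0.0290, edgeR quasi-likelihood), and from summed reads -8.19 with a counting interval of -9.51 to -7.15.

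Gpr174 (chrX:107255878-107296769, plus strand) had 1 read in Ccnd1-Ikk2ca, in replicate 5 (0.0119 CPM), and none in the other 5 libraries. Ccnd1 libraries were at 7.66, 11.6, 2.85 and 1.31 CPM, Ikk2ca(D) libraries at 1.61, 0.0610, 2.87 and 0.657 CPM and Control(D) libraries at 6.94, 5.30, 2.996 and 1.90 CPM. Replicate 2 of Ikk2ca(D), at 0.0610 CPM, came nearest to the libraries with both alleles. The separate log2 effects were 0.45 for Ccnd1 and -1.72 for Ikk2ca, the combined effect was -10.07 and the non-additive effect was -8.80 (SE 1.42, 95% interval -11.77 to -5.83, adjusted p = 0.0290, edgeR quasi-likelihood). This fitted value again is no bound: the ratio of summed levels to Ccnd1 was 0.000396 with a counting interval of 1.002e-05 to 0.00221.

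Cd79a (chr7:24897381-24902197, plus strand) was the only called gene with ample reads in every library. It was at 58.8 to 126 CPM (median 76.9) in the 6 Ccnd1-Ikk2ca libraries, at 863, 518, 666 and 370 CPM in Ccnd1, at 469, 265, 358 and 288 CPM in Ikk2ca(D) and at 653, 594, 692 and 423 CPM in Control(D). The highest library with both alleles was below the lowest of the other 12. Ccnd1 alone gave 0.03 and Ikk2ca alone -0.77 (adjusted p = 0.192), against -2.86 (SE 0.24) for both alleles, and the non-additive effect was -2.12 (SE 0.35, 95% interval -2.85 to -1.38, adjusted p = 0.0310, edgeR quasi-likelihood). Cd79b, which encodes the partner chain Ig-beta, averaged 168 ± 32.8 CPM in Ccnd1-Ikk2ca, 225 ± 1.55 CPM in Ccnd1, 167 ± 22.3 CPM in Ikk2ca(D) and 215 ± 17.0 CPM in Control(D) (SD, n = 6, 4, 4 and 4). Its non-additive effect was -0.06 with an interval of -0.48 to 0.36.

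**Figure D1:**
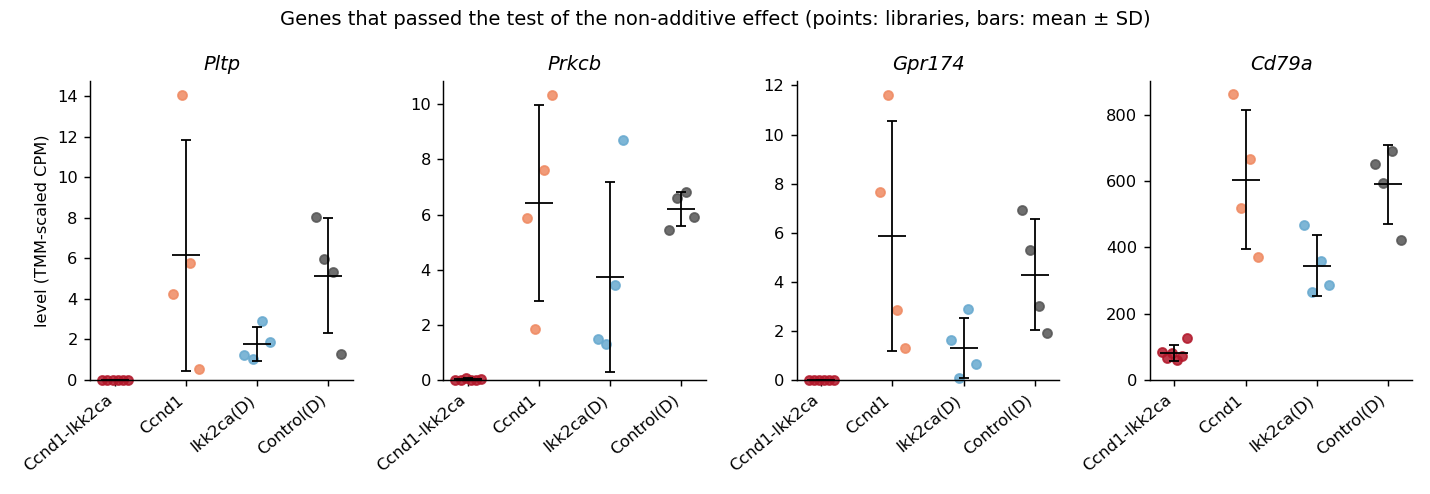
Level of the 4 genes whose non-additive effect passed the test, in CPM on a linear axis that starts at 0, by group. Points are the 18 libraries of cohort D and black bars the mean ± SD. The 6 Ccnd1-Ikk2ca libraries lie below the other 12 in all 4 genes, and for Cd79a they reach at most 126 CPM.

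On the log2 scale, 2 of the 4 called genes, Prkcb and Cd79a, had no single effect estimated at 2-fold or more. In Pltp and Gpr174 the summed single effects were in the same direction as the combined effect but smaller. Additivity depends on the scale. In CPM, the level with both alleles minus the additive expectation (Ccnd1 plus Ikk2ca(D) minus Control(D)) was -2.77 (SE 3.21) for Pltp, -3.95 (SE 2.50) for Prkcb, -2.87 (SE 2.68) for Gpr174 and -278 (SE 130) for Cd79a. The sign was the same as on the log2 scale in all 4 genes, and in Pltp, Prkcb and Gpr174 the departure was under 2 SE. Among all genes tested, the 6 libraries with both alleles lay below the other 12 in 87 genes (0.568%) and above them in 82 genes (0.535%).

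All 4 calls depended on which libraries were used, while their sign did not. With each of the 18 libraries left out in turn, Pltp kept its call in 16 fits, with effects of -10.17 to -8.24 over all 18, and lost it without Control(D) replicate 2 (effect -9.12, adjusted p = 0.071) or Ccnd1-Ikk2ca replicate 2 (-10.17, 0.0561, the library with its only read). Prkcb was called in 9 of the 18 fits, with effects of -9.78 to -6.93, and lost its call without any 1 of the 4 Control(D) replicates, Ccnd1 replicate 1 or 3, Ikk2ca(D) replicate 3 or 4 or Ccnd1-Ikk2ca replicate 2, with adjusted p up to 0.114. Gpr174 was called in 6, with effects of -9.90 to -8.06, and lost its call in the same 9 cases and also without Ccnd1 replicate 2 or Ccnd1-Ikk2ca replicate 4 or 5, with adjusted p up to 0.114. Cd79a was called in 5, with effects of -2.29 to -1.89, and lost its call in the cases named for Gpr174 and without Ikk2ca(D) replicate 1, with adjusted p up to 0.12. With Xist status as a covariate the effects were -8.71, -7.50, -8.40 and -2.12 in the same order of genes, with adjusted p of 0.0737 for Pltp and 0.0973 for the other 3.

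**Figure D2:**
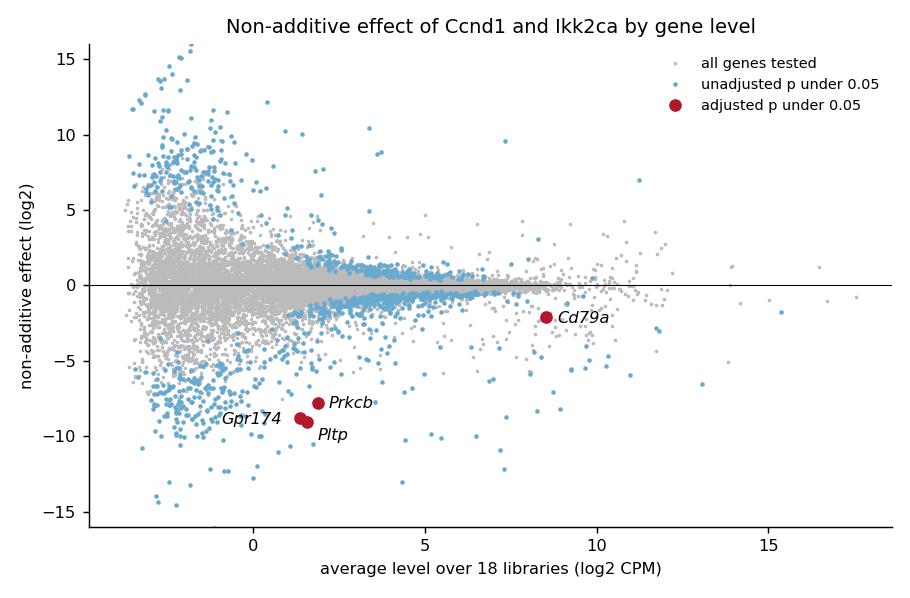
Non-additive log2 effect of each gene tested in cohort D against its average log2 CPM over the 18 libraries, with the 4 called genes named; 9 genes lie outside the drawn range of -16 to 16. Effects spread widely at low levels and narrow as the level rises, around a median of -0.02.

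The precision depended on the level. Over all 15323 genes the median SE was 0.70, and for 3493 genes (22.8%) the whole 95% interval of the non-additive effect lay within -1 to 1, that is, within a 2-fold departure either way. Among the 2074 genes whose average log2 CPM was 5 or more, this held for 1464 (70.6%). For 20 of them, and for 281 of all genes tested, the interval lay wholly beyond a 2-fold departure. These intervals are not adjusted for the number of genes, and only 1 of the 2074, Cd79a, passed the adjusted test. At lower levels, departures of that size were often not detectable with these libraries.

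Among genes that did not pass, the 8 with the smallest p in the lower direction and the 12 in the higher direction, all with average log2 CPM from 1 up, gave the following values. Dhrs3, a retinaldehyde reductase of vitamin A metabolism, was at 0.870 to 1.68 CPM (median 1.16) in Ccnd1-Ikk2ca, at 9.16, 14.3, 10.3 and 10.98 CPM in Ccnd1, at 4.92, 6.10, 3.10 and 3.43 CPM in Ikk2ca(D) and at 5.30, 2.80, 11.4 and 3.19 CPM in Control(D). All libraries with both alleles were below the other 12, and those with Ccnd1 alone were the highest apart from Control(D) replicate 3. The non-additive effect was -2.79 (SE 0.55, adjusted p = 0.131, edgeR quasi-likelihood), and without Control(D) replicate 3 it was -3.38 and passed (adjusted p = 0.0330). Kmo, the kynurenine 3-monooxygenase of tryptophan breakdown, was at 0 to 0.0984 CPM in Ccnd1-Ikk2ca, at 7.49, 0.704, 3.30 and 1.91 CPM in Ccnd1, at 0.631, 3.83, 2.93 and 1.57 CPM in Ikk2ca(D) and at 8.99, 5.28, 2.52 and 6.27 CPM in Control(D). The libraries with both alleles held 12 reads of it in all and lay below all others. Its effect was -5.50 (SE 1.16, adjusted p = 0.219), and -6.45 without Ccnd1-Ikk2ca replicate 3 (adjusted p = 0.0436).

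Jakmip1, which encodes a protein that binds Janus kinases and microtubules, was at 0.385 to 2.86 CPM (median 1.08) in Ccnd1-Ikk2ca, at 33.6, 18.1, 17.4 and 10.6 CPM in Ccnd1, at 12.7, 5.49, 12.3 and 11.3 CPM in Ikk2ca(D) and at 25.3, 21.1, 23.6 and 16.2 CPM in Control(D). The libraries with both alleles were below all others, with an effect of -2.94 (SE 0.63, adjusted p = 0.246, and 0.0493 without Ccnd1-Ikk2ca replicate 5, edgeR quasi-likelihood). Sh3kbp1, an adaptor that links receptors to endocytosis, and Ceacam1, an inhibitory adhesion receptor, gave -2.15 (SE 0.53) and -2.16 (SE 0.54), both with adjusted p = 0.411 and both with all libraries with 2 alleles below the rest. Hadhb, a subunit of the mitochondrial trifunctional protein of fatty acid oxidation, gave -0.89 (SE 0.22) and Capza2, an actin capping subunit, -0.70 (SE 0.18), with overlapping libraries.

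Gt(ROSA)26Sor, the transcript of the Rosa26 locus, which is widely used as a landing site for transgenes, was at 0.228 to 1.87 CPM (median 1.07) in Ccnd1-Ikk2ca, at 6.34, 7.44, 9.39 and 3.46 CPM in Ccnd1, at 4.25, 7.37, 8.67 and 7.93 CPM in Ikk2ca(D) and at 0.213, 0.232, 0.149 and 5.51 CPM in Control(D). Each single allele went with a high level and both together with a low one, and Control(D) replicate 4 stood with the single-allele libraries, apart from the other 3 controls. The effect was -4.86 (SE 1.21, adjusted p = 0.411, edgeR quasi-likelihood) with all libraries. Without Control(D) replicate 4 it was -7.79 and passed, with adjusted p = 0.000399. The labels used here do not say where the alleles or the reporter were inserted.

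In the other direction, Slc19a1, the reduced folate carrier, was at 4.68 to 16.2 CPM (median 8.12) in Ccnd1-Ikk2ca, at 2.47, 2.78, 1.98 and 3.02 CPM in Ccnd1, at 3.85, 5.42, 3.99 and 3.24 CPM in Ikk2ca(D) and at 4.95, 6.34, 5.79 and 7.72 CPM in Control(D). Every library with 1 allele was below every control apart from Ikk2ca(D) replicate 2, and the libraries with both alleles overlapped the controls and reached higher. The separate effects summed to -1.86, the combined effect was 0.50 and the non-additive effect was 2.36 (SE 0.46, adjusted p = 0.131, and 0.0485 without Ccnd1-Ikk2ca replicate 6, edgeR quasi-likelihood). Noct, which encodes nocturnin, was the only 1 of these 12 genes with all libraries with both alleles above the rest. It was at 58.4 to 132 CPM (median 101) in Ccnd1-Ikk2ca, at 14.3, 12.8, 7.89 and 22.5 CPM in Ccnd1, at 28.9, 34.9, 21.4 and 32.2 CPM in Ikk2ca(D) and at 10.2, 9.24, 16.3 and 13.8 CPM in Control(D). Its combined effect was 3.02 against a sum of 1.46, and the non-additive effect was 1.56 (SE 0.38, adjusted p = 0.411).

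Prpf6, a core splicing protein, was at 33.6 to 45.8 CPM (median 40.3) in Ccnd1-Ikk2ca, at 35.2, 33.5, 26.8 and 26.2 CPM in Ccnd1, at 25.6, 23.3, 17.4 and 25.8 CPM in Ikk2ca(D) and at 31.8, 42.3, 33.6 and 27.1 CPM in Control(D). All 4 Ikk2ca(D) libraries were below the other 14, and the libraries with both alleles overlapped the controls. The non-additive effect was 0.94 (SE 0.23, adjusted p = 0.411, edgeR quasi-likelihood). Mapkapk3, a kinase below p38, was at 16.3 to 26.2 CPM in Ccnd1-Ikk2ca, at 6.03 to 8.94 CPM in Ccnd1, at 8.72 to 17.5 CPM in Ikk2ca(D) and at 6.19 to 15.3 CPM in Control(D), with an effect of 1.26 (SE 0.38). Irgm2, an interferon-inducible GTPase, gave 1.09 (SE 0.33). Rev1, a DNA polymerase that bypasses lesions, gave 1.37 (SE 0.35), Gdpd1, a phosphodiesterase of lysophospholipids, 2.17 (SE 0.57), and Abhd12, a lysophosphatidylserine lipase, 0.93 (SE 0.26). Tgm2, the tissue transglutaminase, held 2 reads in the 4 Ccnd1 libraries and ranged over 0.114 to 28.5 CPM in Ccnd1-Ikk2ca, so its fitted effect is not given. Arhgap1, Ints14 and Rbm22 gave effects of 1.07, 1.07 and 1.01, each with a combined effect between -0.29 and -0.08. The adjusted p of these genes, from Mapkapk3 to Rbm22, was 0.436 to 0.582.

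**Figure D3:**
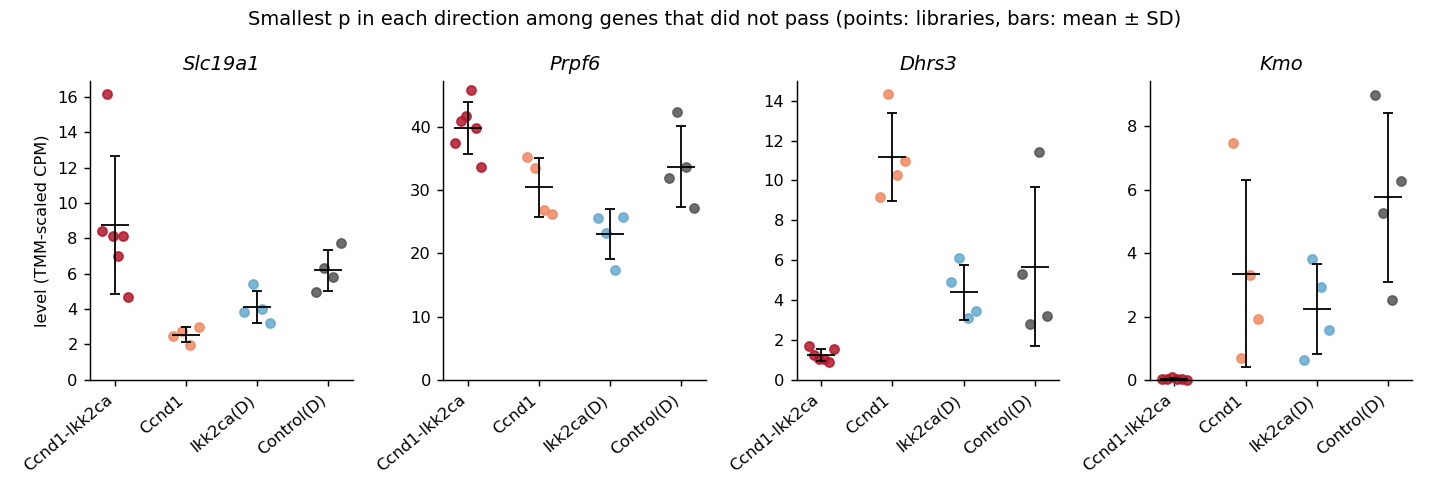
Level in CPM, on a linear axis that starts at 0, of Slc19a1, Prpf6, Dhrs3 and Kmo, the genes of smallest p in each direction that did not pass, with points for the 18 libraries of cohort D and bars for the mean ± SD. Ccnd1-Ikk2ca libraries lie below all others in Dhrs3 and Kmo, and overlap Control(D) in Slc19a1 and Prpf6.

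The gene lists are described by how many of their tested members lay on each side of 0 and by their median effect; over all genes 7454 lay above 0 and 7869 below, with a median of -0.02. The list members named here, other than Cd79a, were chosen after their values were seen, and none of them passed the test for non-additivity at an adjusted p under 0.05. NF-kB genes, the pathway that Ikk2ca drives, had 26 of 46 above 0 and a median of 0.09. Means of list members are given ± SD, with n = 6 for Ccnd1-Ikk2ca and n = 4 for each other group. Tnfaip3, a feedback inhibitor of NF-kB, averaged 142 ± 41.5 CPM in Ccnd1-Ikk2ca, 22.2 ± 8.83 CPM in Ccnd1, 115 ± 44.0 CPM in Ikk2ca(D) and 22.0 ± 8.57 CPM in Control(D), with a non-additive effect of 0.30 (95% interval -0.68 to 1.27). Nfkbia, the inhibitor that IKK2 marks for destruction, gave 0.10 (-0.53 to 0.72) and Relb, a subunit of the alternative pathway, -0.12 (-0.82 to 0.59). Of the 46 genes, 2 had an unadjusted p under 0.05, beside 6.86% of all genes tested. They were Lta, a cytokine at 0 reads in Ccnd1, for which no fold is given, and Icam1, an adhesion molecule and NF-kB target. Icam1 was at 191 ± 68.1 CPM in Ccnd1-Ikk2ca, 19.2 ± 4.61 CPM in Ccnd1, 119 ± 35.4 CPM in Ikk2ca(D) and 26.0 ± 8.23 CPM in Control(D). Its effect was 1.12 (SE 0.40, adjusted p = 0.648, edgeR quasi-likelihood).

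Genes of the cell cycle, the process that cyclin D1 drives, had small medians when grouped by the cyclins themselves and a positive median for mitosis. The list of D-type cyclins, CDK inhibitors and RB proteins had a median of -0.04, with 12 of 25 above 0. Cdkn1a, which encodes the CDK inhibitor p21, was at 44.6 ± 11.8 CPM in Ccnd1-Ikk2ca, 5.79 ± 3.51 CPM in Ccnd1, 29.99 ± 17.6 CPM in Ikk2ca(D) and 2.48 ± 0.596 CPM in Control(D), with an effect of 1.22 for Ccnd1 alone and 3.60 for Ikk2ca alone, a combined effect of 4.17 and a non-additive effect of -0.65 (95% interval -1.90 to 0.60). Ccnd2, another D-type cyclin, was at 761 ± 333 CPM in Ccnd1-Ikk2ca, 293 ± 237 CPM in Ccnd1, 464 ± 318 CPM in Ikk2ca(D) and 99.4 ± 32.1 CPM in Control(D), with an effect of -0.84 (-2.82 to 1.14). DNA replication genes had 23 of 34 above 0 and a median of 0.31, and Mcm4, Mcm3 and Pold1, subunits of the replicative helicase and polymerase, gave 1.19, 1.36 and 1.29 with unadjusted p of 0.0151, 0.0395 and 0.0111. Mitosis genes had 24 of 30 above 0 and a median of 0.85, with a median SE of 0.75. At an unadjusted p under 0.05, 1 of the 30 was higher and 0 lower, beside 2.7% and 4.16% of all genes tested. The median log2 effect of the list was 0.04 with Ccnd1 alone, -0.62 with Ikk2ca alone and 0.18 with both. None of the 30 passed an adjusted p under 0.05 between Ccnd1-Ikk2ca and Control(D), and Mki67, the proliferation marker, was at 27.0 ± 11.4 CPM in Ccnd1-Ikk2ca, 21.2 ± 6.14 CPM in Ccnd1, 24.4 ± 17.0 CPM in Ikk2ca(D) and 23.7 ± 10.2 CPM in Control(D).

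B cell genes leaned the other way. Of 30 B cell identity genes 21 lay below 0, with a median of -0.63, of which Cd79a was called. Ms4a1, which encodes CD20, was at 29.7 ± 9.19 CPM in Ccnd1-Ikk2ca, 74.6 ± 32.4 CPM in Ccnd1, 79.4 ± 43.7 CPM in Ikk2ca(D) and 85.9 ± 20.6 CPM in Control(D), with an effect of -1.21 (SE 0.53, adjusted p = 0.685, edgeR quasi-likelihood). MHC class II genes, which present antigen to T cells, had lower medians with each allele and a median non-additive effect close to 0. Their median effect was -1.13 with Ccnd1 alone, -2.07 with Ikk2ca alone and -3.11 with both. Their median non-additive effect was -0.01, with a median SE of 0.89. For 1 of 11 the interval lay within a 2-fold departure, beside 22.8% of all genes, so additivity of the single members is not shown. Between Ccnd1-Ikk2ca and Control(D) 9 of 11 passed as lower, beside 5.32% of all genes tested. H2-Eb1 was at 19.6 ± 4.29 CPM in Ccnd1-Ikk2ca, 78.3 ± 35.1 CPM in Ccnd1, 42.4 ± 13.7 CPM in Ikk2ca(D) and 171 ± 70.5 CPM in Control(D), with an effect of 0.01 (-0.97 to 0.9999), and H2-Ab1 gave 0.18 (-0.85 to 1.22). Cd74, the invariant chain, was the only member that rose between Ccnd1-Ikk2ca and Control(D), by 1.36 on the log2 scale, with an effect of 0.84 (-0.10 to 1.77). Class I genes, with 13 of 17 above 0, had a median of 0.14.

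Plasma cell genes were mixed. Of 27 genes of plasma cell identity and secretion 19 lay below 0, with a median of -0.34. Jchain, the chain that joins IgA and IgM, was at 9200 ± 4979 CPM in Ccnd1-Ikk2ca, 77740 ± 38250 CPM in Ccnd1, 28490 ± 12640 CPM in Ikk2ca(D) and 72100 ± 18130 CPM in Control(D), with an effect of -1.74 (SE 0.68). Mzb1, a chaperone of antibody secretion, gave -1.14 (SE 0.43), and Ccr10, a homing receptor of IgA plasma cells, -2.90 (SE 0.84), with 3.17 ± 1.48 CPM in Ccnd1-Ikk2ca, 59.9 ± 39.9 CPM in Ccnd1, 20.1 ± 11.2 CPM in Ikk2ca(D) and 51.1 ± 22.0 CPM in Control(D). The regulators Prdm1, Irf4 and Xbp1, which set up the plasma cell state, gave -0.12 (-1.14 to 0.89), 0.43 (-0.10 to 0.96) and -0.43 (-0.96 to 0.10). Genes of ER folding and the unfolded protein response had a median of -0.20, and for 38 of 41 the interval lay within a 2-fold departure. It did so for 35 of 36 genes of oxidative phosphorylation, whose median was 0.03. The share was 22.8% over all genes and 70.6% over those with average log2 CPM of 5 or more. It was lower in other lists, with 16 of 46 NF-kB genes, 5 of 30 B cell identity genes and 1 of 30 mitosis genes.

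Adhesion and migration genes had 24 of 29 below 0 and a median of -0.69, beside single-allele medians of -0.21 and -0.32 and a combined median of -1.60. Klf2, a transcription factor of lymphocyte egress, was at 0.118 ± 0.130 CPM in Ccnd1-Ikk2ca, 6.65 ± 3.90 CPM in Ccnd1, 1.497 ± 1.34 CPM in Ikk2ca(D) and 9.31 ± 1.72 CPM in Control(D), with an effect of -3.14 (SE 1.34). Vim, the intermediate filament vimentin, gave -1.51 (SE 0.63). Among checkpoint and ligand genes, with a median of -0.45, Tigit, an inhibitory receptor, was at 0.668 ± 0.521 CPM in Ccnd1-Ikk2ca, 34.3 ± 24.3 CPM in Ccnd1, 8.02 ± 6.97 CPM in Ikk2ca(D) and 32.9 ± 15.7 CPM in Control(D), with an effect of -3.65 (SE 1.08, adjusted p = 0.582, edgeR quasi-likelihood). Hif1a, the oxygen-sensing factor, from the glycolysis list (median 0.02), gave -1.43 (SE 0.42), and Scd1 and Hmgcs1, enzymes of fatty acid and sterol synthesis from a list with a median of -0.11, gave -2.03 (SE 0.78) and -1.20 (SE 0.34).

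The medians of the other lists were 0.26 for the BCL2 family and apoptosis, where Bcl2 gave 0.90 (SE 0.37), 0.18 for ATF4 and amino acid response genes, 0.12 for interferon-stimulated genes, 0.05 for MYC targets and ribosome biogenesis, -0.04 for p53 targets and -0.01 for histone lysine methylation. Immediate-early AP-1 genes had 15 of 19 below 0 and a median of -0.36.

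**Figure D4:**
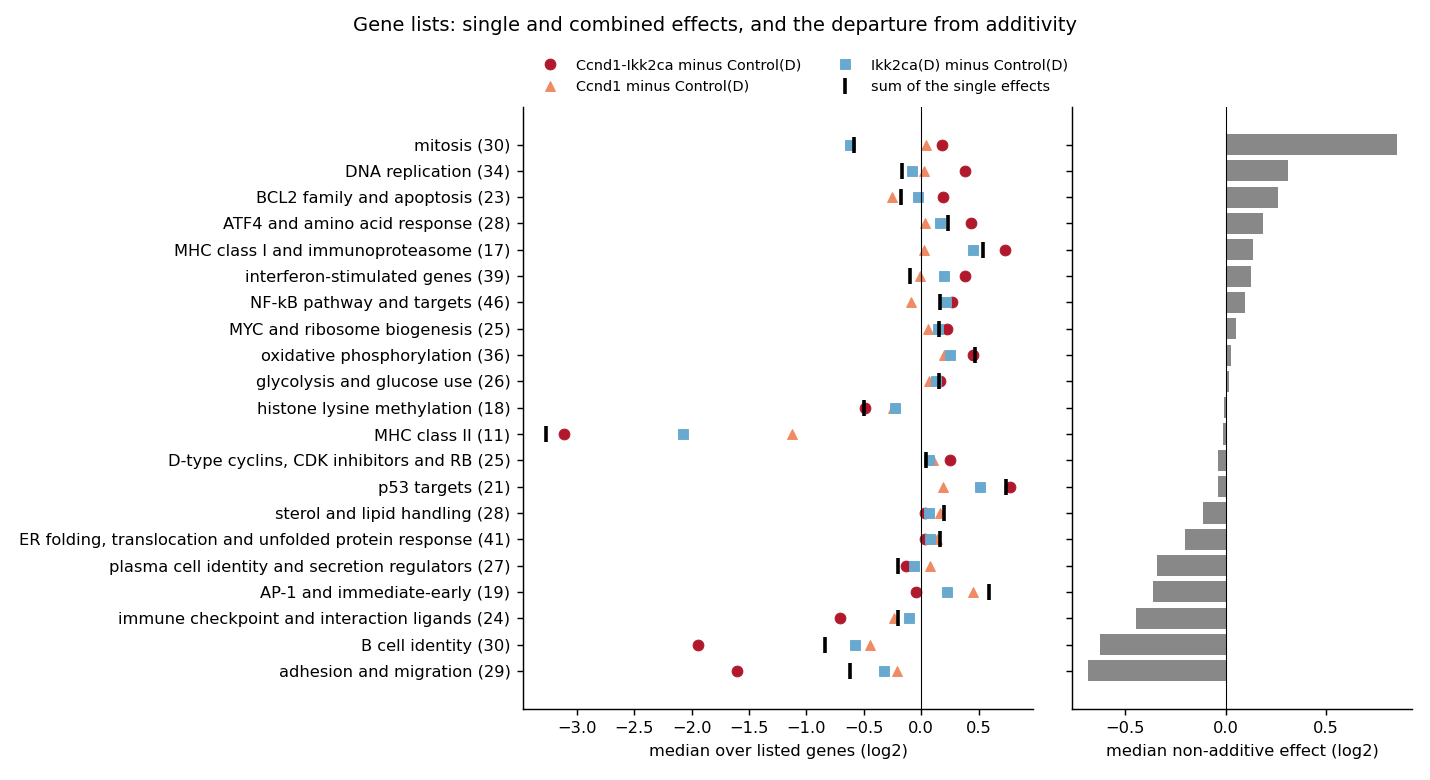
Medians over the tested members of each pathway list in cohort D, with the number of genes in brackets: on the left the log2 effects of both alleles, of each allele alone and of the sum, against Control(D), and on the right, as bars, the non-additive log2 effect. Mitosis genes have the highest median non-additive effect, 0.85, and adhesion and migration genes the lowest, -0.69. The median SE of that effect is 0.75 in both lists.

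Markers of other cell types that the sorted cells could hold were summed per library. Sums of neutrophil, T cell, B cell precursor and dendritic cell markers were lower in Ccnd1-Ikk2ca than in Ccnd1 without overlap. The sum of erythroid markers was higher without overlap. In each of these lists Ccnd1-Ikk2ca overlapped Ikk2ca(D). Neutrophil markers, 16 of 16 tested and all 16 below 0, had a median non-additive effect of -3.97. Their summed level was 1.60 to 236 CPM (median 15.9) in Ccnd1-Ikk2ca, 432 to 1867 CPM (median 758) in Ccnd1, 63.0 to 602 CPM (median 107) in Ikk2ca(D) and 64.5 to 605 CPM (median 213) in Control(D), with none of the 16 at 0 reads in any group. The Ccnd1 libraries were above those with both alleles without overlap. Lyz2 is a lysozyme of myeloid cells from the list of monocyte and macrophage markers, of which 7 tested members lay above 0 and 8 below. Its level was 11.02 ± 16.7 CPM in Ccnd1-Ikk2ca, 183 ± 73.4 CPM in Ccnd1, 84.1 ± 117 CPM in Ikk2ca(D) and 82.8 ± 30.4 CPM in Control(D). The 16 monocyte and macrophage markers together summed to 423 to 811 CPM in Ccnd1-Ikk2ca, 307 to 722 CPM in Ccnd1, 621 to 943 CPM in Ikk2ca(D) and 413 to 532 CPM in Control(D), with 1 of them at 0 reads in Ccnd1-Ikk2ca, and the ranges of Ccnd1-Ikk2ca and Ccnd1 overlapped. T cell markers summed to 1.299 to 7.28 CPM in Ccnd1-Ikk2ca, 7.31 to 18.8 CPM in Ccnd1, 1.93 to 11.96 CPM in Ikk2ca(D) and 13.3 to 28.6 CPM in Control(D), with 1 of 13 at 0 reads in Ccnd1-Ikk2ca, 1 in Ccnd1, 2 in Ikk2ca(D) and 0 in Control(D). The 10 B cell precursor markers summed to 8.62 to 34.5 CPM in Ccnd1-Ikk2ca, 46.3 to 87.9 CPM in Ccnd1, 14.7 to 74.3 CPM in Ikk2ca(D) and 51.3 to 85.2 CPM in Control(D), with 5 at 0 reads in Ccnd1-Ikk2ca, 4 in Ccnd1, 5 in Ikk2ca(D) and 2 in Control(D). Dendritic cell markers summed to 132 to 185 CPM in Ccnd1-Ikk2ca, 237 to 302 CPM in Ccnd1, 155 to 241 CPM in Ikk2ca(D) and 278 to 308 CPM in Control(D), with 2 of 10 at 0 reads in Ccnd1-Ikk2ca, 2 in Ccnd1, 3 in Ikk2ca(D) and 2 in Control(D). Erythroid markers summed to 7.66 to 21.8 CPM in Ccnd1-Ikk2ca, 3.13 to 6.14 CPM in Ccnd1, 3.60 to 10.02 CPM in Ikk2ca(D) and 3.51 to 6.98 CPM in Control(D), with 2 of 12 at 0 reads in Ccnd1-Ikk2ca, 2 in Ccnd1, 3 in Ikk2ca(D) and 2 in Control(D). The median non-additive effect was -1.61 over 10 tested T cell markers and -1.465 over 4 tested B cell precursor markers. It was -0.14 for dendritic cell markers and -0.22 for erythroid markers, each with 4 tested members above 0 and 4 below.

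The other lists overlapped between Ccnd1-Ikk2ca and each other group. The 11 markers of NK and cytotoxic cells summed to 9.58 to 46.3 CPM in Ccnd1-Ikk2ca, 10.97 to 53.3 CPM in Ccnd1, 3.56 to 19.6 CPM in Ikk2ca(D) and 16.5 to 43.5 CPM in Control(D), with 6, 3, 4 and 4 of them at 0 reads. The 9 markers of basophils, eosinophils and mast cells summed to 194 to 716 CPM in Ccnd1-Ikk2ca, 110.1 to 560 CPM in Ccnd1, 269 to 479 CPM in Ikk2ca(D) and 159 to 472 CPM in Control(D), with 5, 0, 4 and 0 at 0 reads. The 11 stromal and endothelial markers summed to 11.2 to 28.7 CPM in Ccnd1-Ikk2ca, 6.17 to 23.1 CPM in Ccnd1, 16.1 to 27.7 CPM in Ikk2ca(D) and 6.02 to 16.2 CPM in Control(D), with 5, 6, 5 and 5 at 0 reads. Megakaryocyte markers, 8 in all, summed to at most 3.005 CPM in any library.

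The 30 B cell identity genes summed to 5889 to 11720 CPM in Ccnd1-Ikk2ca, 3116 to 6883 CPM in Ccnd1, 5075 to 8022 CPM in Ikk2ca(D) and 4104 to 5443 CPM in Control(D), with 1 at 0 reads in Ccnd1-Ikk2ca. Most of this sum was Cd74, at a mean of 7355 CPM in Ccnd1-Ikk2ca, 2624 CPM in Ccnd1, 4497 CPM in Ikk2ca(D) and 2863 CPM in Control(D), so the sum did not follow the list as a whole. The list's median difference between Ccnd1-Ikk2ca and Control(D) was -1.94, with 2 members called higher and 11 lower. Over all genes tested, 5.83% were called higher and 5.32% lower in that comparison. The 10 plasma cell markers, among them Jchain, summed to 7766 to 19570 CPM in Ccnd1-Ikk2ca, 30450 to 117900 CPM in Ccnd1, 17380 to 47310 CPM in Ikk2ca(D) and 53810 to 98500 CPM in Control(D), and all 10 were detected in every group. Jchain made up most of that sum, with means of 9200, 77740, 28490 and 72100 CPM in the same order of groups. Over the 10 the median difference between Ccnd1-Ikk2ca and Control(D) was -0.49, with 4 called lower and 0 higher, and the median non-additive effect was -0.23. The part of these markers in the results for Pltp, Prkcb, Gpr174, Cd79a and the gene lists was not tested. In sorted bulk samples fewer cells of a type and less RNA per cell cannot be told apart.

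Cohort M gives the same contrast with MMSET, the histone methyltransferase encoded by Nsd2, in place of Ccnd1. There 15 of 15416 genes passed (0.0973%), 3 higher and 12 lower, and none of the 4 genes called in cohort D was among them. Cd79a was at 1.14, 0.382, 1.85, 1.99, 4.66 and 1.40 CPM in MMSET-Ikk2ca, at 196, 34.7, 28.1 and 44.8 CPM in MMSET, at 248, 134, 177 and 279 CPM in Ikk2ca(M) and at 399, 359, 343 and 335 CPM in Control(M). Here too the libraries with both alleles were below all others, but the MMSET libraries were already below the controls. The effect was -4.54 (SE 0.90, adjusted p = 0.0724, edgeR quasi-likelihood), and the difference of cohort D minus cohort M was 2.43 (SE 0.96, adjusted p = 0.467). Prkcb in cohort M gave -2.26 (SE 2.14) and Gpr174 -3.71 (SE 2.26), the Gpr174 value resting on 1 read in MMSET-Ikk2ca. Pltp gave -0.67 (SE 2.23), with 2 of the 6 MMSET-Ikk2ca libraries at 0 reads and 1 at 1.22 CPM.

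The difference between the cohorts passed for none of these 4 genes: it was -8.35 (95% interval -13.68 to -3.01) for Pltp, -5.52 (-10.76 to -0.27) for Prkcb and -5.06 (-12.52 to 2.40) for Gpr174, with adjusted p of 0.304, 0.587 and 0.840 by edgeR's quasi-likelihood test. Over 17116 genes 1 passed (0.00584%), Fgf11, an intracellular member of the fibroblast growth factor family. In cohort D it averaged 2.23 ± 0.455 CPM in Ccnd1-Ikk2ca, 2.11 ± 2.07 CPM in Ccnd1, 2.79 ± 1.64 CPM in Ikk2ca(D) and 3.55 ± 1.55 CPM in Control(D), an effect of 0.43 (SE 1.06). In cohort M it had 1 read in MMSET-Ikk2ca, against 365 reads in MMSET, 1519 reads in Ikk2ca(M) and 358 reads in Control(M). The fitted difference of 11.02 (SE 1.70, adjusted p = 0.00358) therefore rests on 1 read and is no bound.

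**Figure D5:**
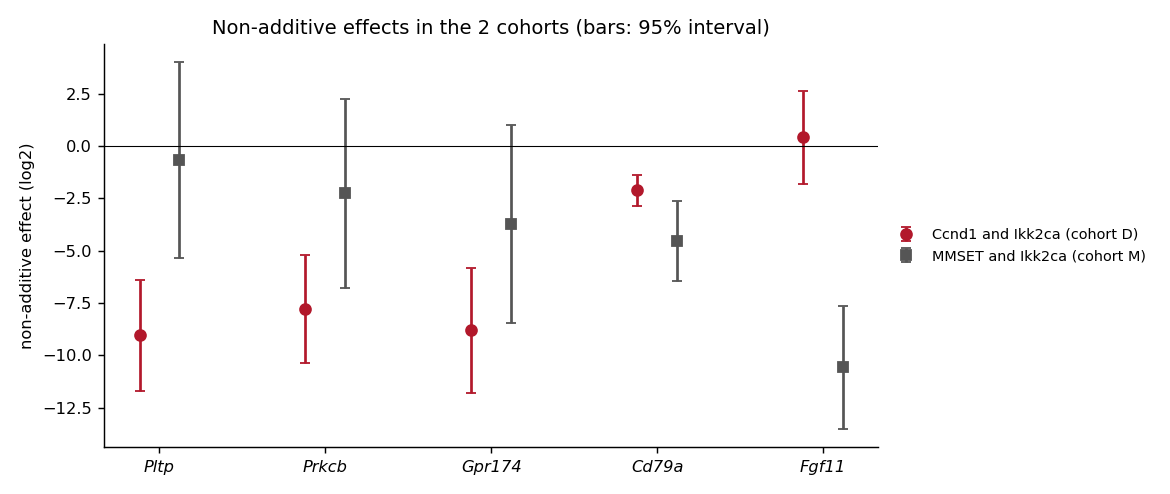
Non-additive log2 effects, with 95% intervals, of the genes called in cohort D and of Fgf11, in cohort D (Ccnd1 with Ikk2ca) and cohort M (MMSET with Ikk2ca). Cd79a is below 0 in both cohorts, at -2.12 and -4.54, and the intervals of Pltp, Prkcb and Gpr174 in cohort M include 0.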

How the data were processed

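RNA of 2000 sorted cells per library was amplified from oligo-dT primers with a template switch and tagged with Nextera XT, per the labels' protocols. Per the submitters' processing notes, bcl2fastq 2.20.0.422, Salmon 1.3.0, DESeq2 1.32.0 and the build GRCm38 were used. The authors deposited Salmon tables with estimated counts, which are expected counts per transcript and not whole numbers; the deposited TPM, normalized within each library, were not used. Estimated counts of 139960 transcripts were summed to 54203 genes with GENCODE M21 and rounded, and 865 transcripts, with 0.0636% to 0.111% of reads in cohort D, found no gene. No strand information was used, so overlapping genes cannot be told apart.

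The 18 libraries of cohort D were fitted together in edgeR 4.0.16 (TMM, filterByExpr, robust quasi-likelihood test, R 4.3.3), with Benjamini-Hochberg adjustment over all genes tested and 0.05 as the threshold. Cohort M was fitted alone, and all 36 libraries for the difference between cohorts. CPM are TMM-scaled. SE is the absolute log2 effect over the root of F, and intervals are at 95%. DESeq2 1.42.0 and limma 3.58.1 served for alternatives, and Python 3.11.15 with pandas 2.3.3, numpy 2.4.6 and matplotlib 3.10.9 for sums and plots. Counting intervals were computed in R. Motifs were sought in RefSeq promoters. The test was tried on simulated data.

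The members and lists were chosen with earlier results of these data known. Named genes were the targeted genes, up to 12 called genes per direction whose average log2 CPM was 1 or more, up to 3 called members per list, and, where fewer than 12 of a direction were called, the genes of smallest p at the same level minimum; unnamed gene models, immunoglobulin segments, Xist and genes of the Y chromosome were not eligible. For the difference between cohorts up to 4 called genes per direction were named. A few list members are not reported here.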

Additional observations from a re-analysis of the deposited data

Results flagged for a closer look

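Some libraries lay far from the rest of their group, by the gap to the nearest library over the group's range; 15 of 128 groups tested did so, and chance gives about 1 in 20. That rate does not hold where all libraries of a group but 1 were at 0 reads, as for Pltp and Gpr174 in Ccnd1-Ikk2ca and Gpr174 in MMSET and MMSET-Ikk2ca, since the 1 library alone sets the range there. Among Ccnd1-Ikk2ca libraries, replicate 2 held the only Pltp (0.0127 CPM), the highest Slc19a1 (16.2 CPM, against 4.68 to 8.40 CPM in the others) and the lowest Mapkapk3 (16.3 CPM, against 22.9 to 26.2 CPM). Replicate 3 of that group was highest in Prkcb (0.0844 CPM) and Kmo (0.0984 CPM), and replicate 5 held the only Gpr174 (0.0119 CPM). Ccnd1 replicate 1 was lowest in Hadhb (48.5 CPM, against 61.7 to 63.6 CPM), Ikk2ca(D) replicate 3 highest in Ccnd1 (3.49 CPM, against 0.540 to 0.708 CPM) and Control(D) replicate 4 highest in Gt(ROSA)26Sor (5.51 CPM, against 0.149 to 0.232 CPM).

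In cohort M, replicate 1 stood apart in several groups: in MMSET-Ikk2ca for Prkcb (0.950 CPM) and Gpr174 (0.0161 CPM), in MMSET for Prkcb (15.6 CPM, against 0.0454 to 2.14 CPM), Gpr174 (1.04 CPM, the others at 0) and Cd79a (196 CPM, against 28.1 to 44.8 CPM), and in Ikk2ca(M) for Gpr174 (1.93 CPM, against 0.248 to 0.398 CPM).

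The effect of Ikk2ca differed between cells with and without Ccnd1, by the test of that difference, in Pltp (-9.04), Prkcb (-7.79), Gpr174 (-8.80) and Cd79a (-2.12), and the non-additive effect differed between cohorts D and M in Fgf11 (11.02). The values of Pltp, Gpr174 and Fgf11 each rest on 1 read in the group with both alleles and are no bound. None of the cohort D calls held with Xist as a covariate, with replicate numbers 1 to 4 only or with all 36 libraries in 1 fit.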

How the results depend on the processing

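The 4 called genes of cohort D kept their sign in all 18 fits that left out a library and in all 10 other alternatives. Pltp, Prkcb and Gpr174 passed in 5 of those 10 and Cd79a in 6. The number called was 0 to 7 with 1 library left out, 0 with replicate numbers 1 to 4 only, with all 36 libraries in 1 fit, with Xist as a covariate or at an adjusted p under 0.01, 1 with limma voom (Gt(ROSA)26Sor) and 115 with DESeq2 (37 higher, 78 lower). It stayed within 1.5 times of 4 with DESeq2 size factors, without a low-count filter, with a stricter one and without immunoglobulin genes. Same-numbered libraries did not pair: over 24 pairs the correlation of deviations was -0.024 to 0.088. With the replicate number as a block 3 genes were called (Cd79a, Atp1b1 and Jakmip1), 3 in cohort M, and, in the simple comparisons, 551, 37, 2 and 1017 in place of 950 (Ccnd1-Ikk2ca over Ccnd1), 65 (Ccnd1-Ikk2ca over Ikk2ca(D)), 1 (Ccnd1 over Control(D)) and 1708 (Ccnd1-Ikk2ca over Control(D)).

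Limma voom gave 1538, 106 and 0 for the first 3 of these, DESeq2 gave 1822, 405 and 96, and 559 in place of 67 for Ikk2ca(D) over Control(D). Leaving out 1 library gave 410 to 1120, 15 to 120, 1 to 3 and 984 to 1844, and 17 to 120 for the 67. For these simple comparisons 7 further settings were chosen after seeing the data: Xist as a covariate gave 4 in place of 67, replicates 1 to 4 gave 544, 16 and 996 in place of 950, 65 and 1708, and the fit of all 36 gave 115 and 9 in place of 67 and 65; the other counts stayed within 1.5 times. In cohort M the 15 calls became 33 with limma voom, 24 without immunoglobulin genes, 369 with DESeq2, 25 with the stricter filter, 6 in the fit of all 36, 5 with Xist, 4 at 0.01 and 4 to 31 with 1 library left out. The 1 call of the difference between cohorts became 4 with limma voom and 1 to 4 with 1 library left out. Effects near 0 changed sign without passing: Nsd2 to 0.0109 with replicates 1 to 4 and 0.18 with the block, and Ikbkb to 0.00387 (DESeq2 size factors), 0.11 (voom), 0.00902 (no filter), 0.0341 (replicates 1 to 4), 0.0042 (DESeq2), 0.00164 (stricter filter), 0.0557 (block), 0.00209 (all 36) and -0.22 to 0.24 with 1 library left out. The cause of these shifts was not tested.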
